A study of Homo sapiens with 8 samples.

Results

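The genes followed here were YAP1, WWTR1 (which encodes TAZ) and TEAD1, together with 7 genes widely used as readouts of YAP and TAZ activity or as members of the same pathway: CTGF, CYR61, ANKRD1, AXL, AMOTL2, LATS2 and AJUBA. They were chosen by name as a known pathway, and all 10 were present among the 18955 genes of the table. They were measured by single-cell RNA sequencing in SUM159, an established line from a human triple-negative breast carcinoma, into which the lentiviral ClonTracer barcodes had been introduced. The 8 libraries held 5738 cells. One library held parental cells (pre-treatment) and one held cells grown with DMSO, and the others held cells grown with 0.6 nM paclitaxel, in 160 nM palbociclib, in 100 nM JQ1 (2 libraries, JQ1-A and JQ1-B), or in JQ1 with paclitaxel or JQ1 with palbociclib at the same doses, for up to 18 passages. JQ1 blocks the BET bromodomain proteins, paclitaxel stabilises microtubules and palbociclib blocks the kinases CDK4 and CDK6. DMSO, paclitaxel, JQ1-A and JQ1+paclitaxel belonged to one experiment, while palbociclib, JQ1-B and JQ1+palbociclib belonged to another that had no vehicle library. The replicate cultures of each treatment had been mixed in equal cell numbers, so each library was 1 sample, and a JQ1+palbociclib culture had died out during selection.

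YAP and TAZ are transcriptional coactivators that bind DNA through TEAD factors. When the Hippo kinases are active, LATS1 and LATS2 phosphorylate YAP and TAZ and keep them out of the nucleus, whereas spreading, tension and low cell density favour their nuclear activity. Several target genes, among them LATS2, AMOTL2 and AJUBA, encode regulators of the pathway itself, and high YAP or TAZ activity is well known in mesenchymal-like breast cancer cells such as these. The activity of YAP and TAZ is set largely by phosphorylation and localisation, which RNA counts do not measure.

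Library totals ranged from 10621159 UMIs (unique molecular identifiers, 1 per captured RNA molecule) in DMSO to 24240835 in JQ1+palbociclib. Levels are given as CPM, a gene's UMIs summed over the cells of a library and scaled to an equal library total. In such sums fewer cells that express a gene and less RNA of it per cell cannot be told apart. Markers of the line were present in every library, with VIM at 3279 to 4502 CPM and CD44 at 228 to 437 CPM. KRT8 was at 275 to 445 CPM and KRT18 at 313 to 669 CPM. ESR1 and PGR, which the line lacks, had 7 and 4 UMIs over all libraries. Of the other markers listed as absent or low, EPCAM had 30 UMIs and CDH1 was not among the genes measured. ERBB2 was present in every library, with 1241 UMIs in all, from 5.32 CPM in pre-treatment to 12.005 CPM in JQ1+palbociclib. Of 9 markers of immune, endothelial, erythroid and hepatic cells, 7 were not in the table, and the other 2 together did not pass 0.767 CPM. There were 13 cell barcodes shared by 2 or more libraries, carried by 26 cells. CPM were shifted between some libraries with and without JQ1, with a median log2 ratio over 9288 genes of -0.24 for JQ1-A against DMSO, -0.26 for JQ1+paclitaxel against paclitaxel and -0.042 for JQ1+palbociclib against palbociclib. The fitted fold changes below use TMM scaling, which removes this shift, while ratios of single pairs of libraries are of unscaled CPM and hold it. The level of each gene in each library is shown in the plot of CPM by library.

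**Figure D1:**
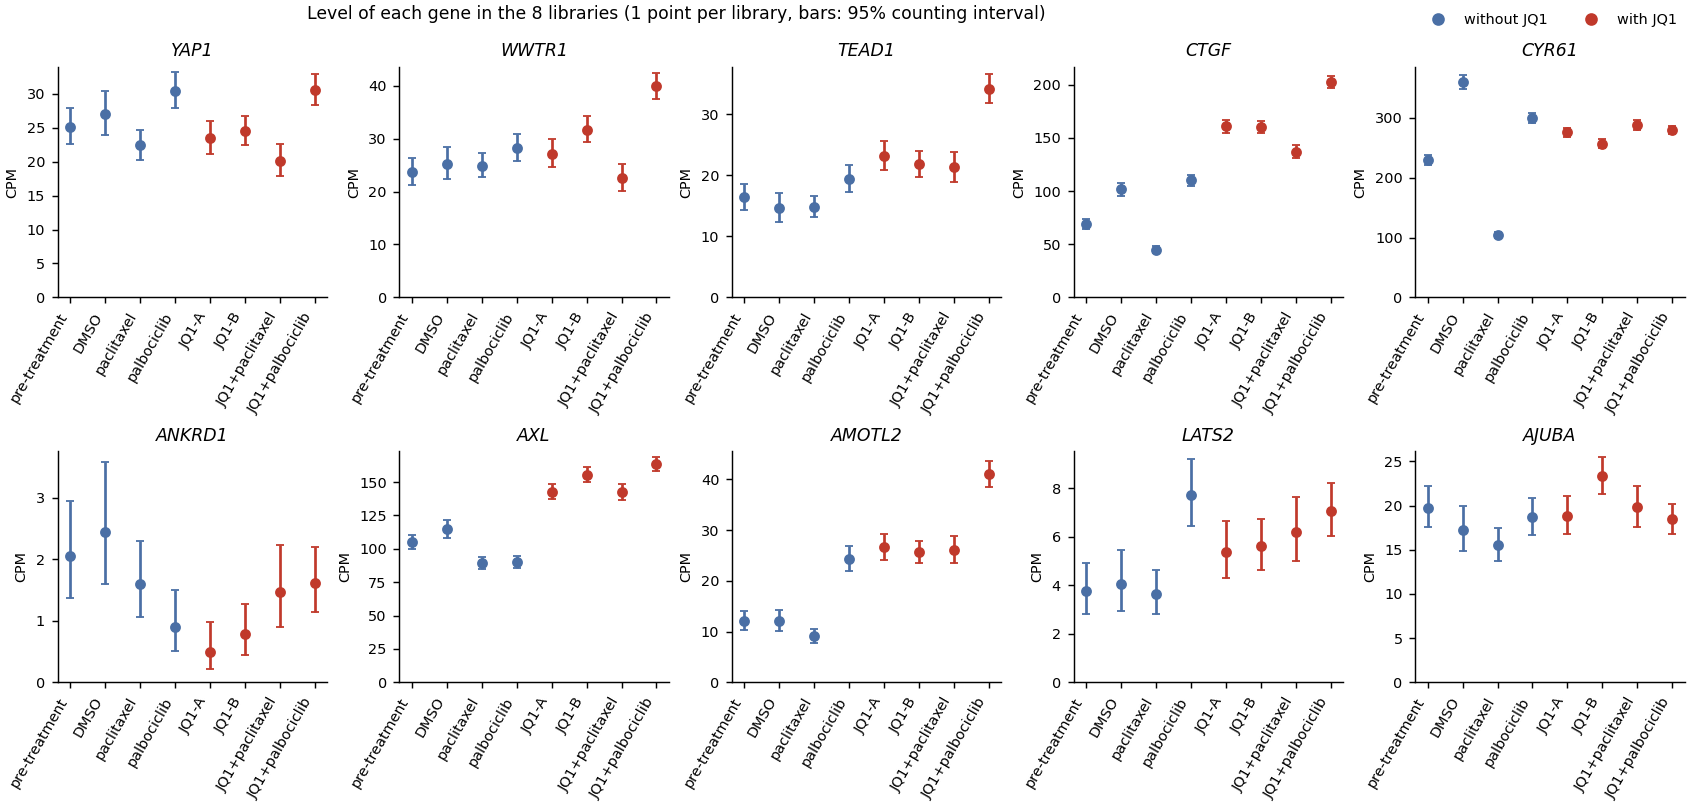
CPM of the 10 genes (y axis, from 0) in each of the 8 libraries (x axis), 1 point per library with its 95% exact Poisson interval, in red for libraries with JQ1 and in blue for those without. CTGF, AXL, AMOTL2 and TEAD1 were higher in all 4 JQ1 libraries than in any other library, while CYR61 was lowest in paclitaxel at 104 CPM and YAP1 stayed between 20.1 and 30.6 CPM.

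The stretches of DNA just before the starts of these genes are shown because CTGF and ANKRD1 are the classical TEAD-driven genes of this list and AMOTL2 had the largest fold change under JQ1. Sequences of RefSeq promoters (GRCh38.p14) were matched for 8 of the 10 genes, in 12 windows, since WWTR1, AXL, AMOTL2 and AJUBA have 2 annotated starts each. TEAD1 and CYR61 had no entry. Each window below is the 250 bases before the start, written 5′ to 3′ along the gene, and capitals mark every copy of the TEAD core motif GGAATG or, for the other strand, CATTCC.
CTGF, chr6:131951373-131951622, minus strand: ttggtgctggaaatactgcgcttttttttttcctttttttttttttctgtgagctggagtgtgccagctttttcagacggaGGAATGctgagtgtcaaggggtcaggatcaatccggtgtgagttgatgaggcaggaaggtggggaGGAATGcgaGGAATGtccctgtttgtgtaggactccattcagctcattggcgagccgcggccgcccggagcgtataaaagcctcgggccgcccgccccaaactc
ANKRD1, chr10:90921088-90921337, minus strand: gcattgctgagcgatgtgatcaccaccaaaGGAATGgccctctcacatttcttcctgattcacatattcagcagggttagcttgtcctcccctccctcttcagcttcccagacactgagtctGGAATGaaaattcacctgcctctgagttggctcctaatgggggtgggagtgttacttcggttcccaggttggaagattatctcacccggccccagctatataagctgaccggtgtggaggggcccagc
AMOTL2, second annotated start, chr3:134374448-134374697, minus strand: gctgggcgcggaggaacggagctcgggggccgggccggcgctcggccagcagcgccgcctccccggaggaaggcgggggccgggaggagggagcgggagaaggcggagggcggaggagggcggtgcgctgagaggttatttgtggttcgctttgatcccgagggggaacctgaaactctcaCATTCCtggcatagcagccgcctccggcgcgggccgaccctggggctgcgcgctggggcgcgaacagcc

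The CTGF window held 3 copies of GGAATG, at bases -169 to -164, -104 to -99 and -95 to -90 counted back from the start. ANKRD1 held 2 copies, at -220 to -215 and -128 to -123. AMOTL2 held 1 copy of CATTCC before its second annotated start, at -69 to -64, and none before its first. At least 1 copy was also found before YAP1 and before one of the starts of AXL and of AJUBA, so that 6 of the 8 matched genes held the motif, and the windows of WWTR1 and LATS2 did not. Genes with 2 starts had 2 windows, so this count per gene is not comparable with the shares per window that follow. Among 35116 promoter windows of the same length, 11.9% held at least 1 copy, 0.940% held at least 2 and 0.0826% held at least 3. A match of letters is a description of the window and does not show that TEAD1 was bound there.

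YAP1 (chromosome 11, 101981178 to 102104155, GRCh37), one of the coactivators, had 25.1 CPM in pre-treatment, 27.0 in DMSO, 22.4 in paclitaxel, 30.4 in palbociclib, 23.5 in JQ1-A, 24.5 in JQ1-B, 20.1 in JQ1+paclitaxel and 30.6 in JQ1+palbociclib. Both palbociclib libraries lay above the other 6, and both paclitaxel libraries lay below the other 6. Such a lack of overlap, in one direction or the other, was shown by 14.4% of all genes tested for palbociclib and 4.22% for paclitaxel. YAP1 had no adjusted p under 0.05 for either drug in the fits below, and neighbours in the order of levels had overlapping 95% counting intervals.

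WWTR1 (chromosome 3, 149235022 to 149454501), which encodes the coactivator TAZ, had 23.6 CPM in pre-treatment, 25.2 in DMSO, 24.9 in paclitaxel, 28.2 in palbociclib, 27.2 in JQ1-A, 31.7 in JQ1-B, 22.5 in JQ1+paclitaxel and 39.9 in JQ1+palbociclib. JQ1+palbociclib stood highest, and JQ1+paclitaxel was the lowest of the 8, so libraries with and without JQ1 overlapped.

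TEAD1 (chromosome 11, 12695968 to 12966284), the DNA-binding partner, had 16.4 CPM in pre-treatment, 14.6 in DMSO, 14.8 in paclitaxel and 19.4 in palbociclib. With JQ1 it had 23.1 CPM in JQ1-A, 21.8 in JQ1-B, 21.3 in JQ1+paclitaxel and 34.2 in JQ1+palbociclib. All 4 JQ1 libraries were above the other 4, and JQ1+palbociclib was far above the other JQ1 libraries.

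CTGF (listed as CCN2 in the annotation, chromosome 6, 132269316 to 132272512) encodes a secreted matricellular protein. It had 69.1 CPM in pre-treatment, 102 in DMSO, 45.0 in paclitaxel and 109.95 in palbociclib. With JQ1 it had 160.8 CPM in JQ1-A, 160.5 in JQ1-B, 137 in JQ1+paclitaxel and 203 in JQ1+palbociclib. The groups did not overlap. The JQ1-A and JQ1-B libraries, from separate experiments, had nearly the same level, but without 1 cell very high in CTGF JQ1-B was at 148 CPM, below the 95% counting interval of JQ1-A (155 to 167).

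CYR61 (CCN1 in the annotation, chromosome 1, 86046444 to 86050272), the other secreted matricellular target, behaved differently. It had 229 CPM in pre-treatment, 360.2 in DMSO, 104 in paclitaxel, 299 in palbociclib, 275 in JQ1-A, 257 in JQ1-B, 288 in JQ1+paclitaxel and 279 in JQ1+palbociclib. The 4 JQ1 libraries lay within 257 to 288 CPM, inside the much wider span of the libraries without JQ1.

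AXL (chromosome 19, 41725128 to 41767671), a receptor tyrosine kinase linked to the mesenchymal state, had 105 CPM in pre-treatment, 115 in DMSO, 89.4 in paclitaxel and 89.9 in palbociclib, against 143 in JQ1-A, 156 in JQ1-B, 143 in JQ1+paclitaxel and 164 in JQ1+palbociclib. The groups did not overlap. ANKRD1 (chromosome 10, 92671853 to 92680844), a cardiac and stretch-induced ankyrin repeat protein, had only 8 to 39 UMIs per library, or 0.494 CPM in JQ1-A to 2.45 CPM in DMSO. It did not pass the minimum of 5 CPM in 2 libraries, so no fold change is given for it.

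Of the feedback regulators, AMOTL2 (chromosome 3, 134074189 to 134094321), an angiomotin family protein that holds YAP at junctions, had 12.1 CPM in pre-treatment, 12.1 in DMSO, 9.02 in paclitaxel and 24.3 in palbociclib. It had 26.6 CPM in JQ1-A, 25.6 in JQ1-B, 26.1 in JQ1+paclitaxel and 41.1 in JQ1+palbociclib. The groups did not overlap, although palbociclib without JQ1 was close to the lower JQ1 libraries. LATS2 (chromosome 13, 21547175 to 21635725), a kinase that inactivates YAP and TAZ, ranged from 3.63 CPM in paclitaxel to 7.73 in palbociclib. AJUBA (chromosome 14, 23440386 to 23451760), a LIM protein that inhibits the LATS kinases, ranged from 15.5 CPM in paclitaxel to 23.3 in JQ1-B, and in both genes the libraries with and without JQ1 overlapped.

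The first comparison asked which of the genes differed between populations selected with and without JQ1. Exposures to JQ1 (4 libraries against 4), palbociclib and paclitaxel were fitted together in edgeR, using the quasi-likelihood F test and adjusting p by Benjamini-Hochberg over all genes tested. For JQ1 this called 3488 of 9288 genes at an adjusted p under 0.05, or 37.6%, and 17.8% of genes were called higher. Of the 10 genes 9 were tested, 5 were called, and all 5 rose. With experiment as a term 363 genes and 4 of the 9 were called, and in 3 matched pairs 361 genes and 4 of the 9. The median log2 fold change of the 9 was 0.58, against -0.0032 over all genes tested.

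AMOTL2 rose by 1.31 ± 0.16 on the log2 scale (SE; edgeR, adjusted p = 0.00121), from a mean of 14.4 ± 6.77 CPM (SD, n = 4 libraries) to 29.9 ± 7.50 CPM. CTGF rose by 1.27 ± 0.18 (adjusted p = 0.00213), from 81.4 ± 30.0 to 165 ± 27.4 CPM. AXL rose by 0.80 ± 0.09 (adjusted p = 0.00121), from 99.8 ± 12.3 to 151 ± 10.3 CPM. TEAD1 rose by 0.80 ± 0.10 (adjusted p = 0.00149), from 16.3 ± 2.22 to 25.1 ± 6.10 CPM. In these 4 genes every JQ1 library was above every library without JQ1, an order that 5.45% of all genes tested showed. They were also called in all 18 alternative fits, with log2 fold changes from 0.93 to 1.53 for AMOTL2, 1.07 to 1.42 for CTGF, 0.68 to 0.90 for AXL and 0.57 to 0.90 for TEAD1.

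WWTR1 was called at 0.42 ± 0.11 (adjusted p = 0.0206), but its libraries overlapped. Without pre-treatment it was at 0.39 (adjusted p = 0.0766), without DMSO at 0.42 (0.0593), without JQ1-A at 0.44 (0.0566) and without JQ1-B at 0.37 (0.0776) in edgeR's test. With experiment as a term it was at 0.34 (adjusted p = 0.205) and in 3 matched pairs at 0.35 (0.203), and it lost its call in each of these fits. LATS2, at 0.58 ± 0.20 (adjusted p = 0.0535), and AJUBA, at 0.37 ± 0.13 (adjusted p = 0.0557), fell just outside the threshold, while YAP1 was at 0.10 ± 0.09 (adjusted p = 0.414). In CPM, without the TMM scaling, the mean of YAP1 was 24.7 with JQ1 and 26.2 without, so the direction of YAP1 depended on scaling.

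CYR61 was not called, at 0.45 ± 0.29 (adjusted p = 0.252), and this value rested on the paclitaxel pair. It was 0.039 without paclitaxel and 0.041 without JQ1+paclitaxel. In unscaled CPM, CTGF was higher in JQ1-A than in DMSO (ratio 1.58, 95% counting interval 1.47 to 1.70), whereas CYR61 was lower (0.765, 0.732 to 0.799). The median log2 ratio over all genes tested in that pair was -0.24, a shift that these ratios still hold. In JQ1+palbociclib against palbociclib the ratios were 1.85 for CTGF and 0.933 for CYR61. In JQ1+paclitaxel against paclitaxel both genes were higher, at 3.05 and 2.78. All these ratios compare 1 library with 1, and the difference between the genes was not tested.

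**Figure D2:**
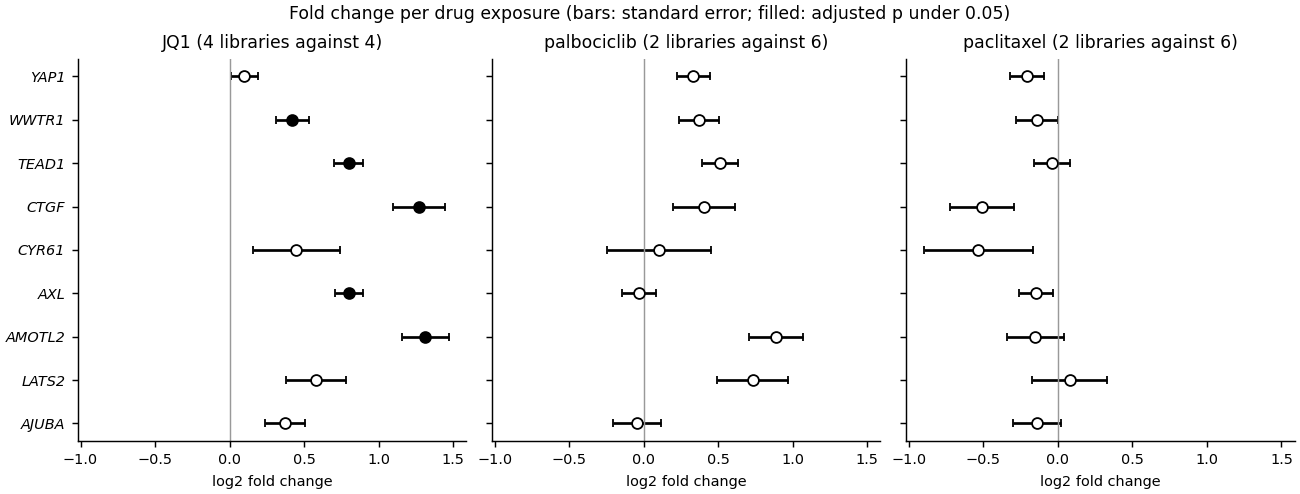
Log2 fold change (x axis) of the 9 tested genes (y axis) for exposure to JQ1, palbociclib and paclitaxel, from edgeR over all 8 libraries. Points are estimates, bars are 1 standard error on each side, and filled points have an adjusted p under 0.05, which holds for WWTR1, TEAD1, CTGF, AXL and AMOTL2 under JQ1 and for none under the other drugs.

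Single pairs of libraries, which have no replicate check, are given as ratios with 95% counting intervals. A 2-fold ratio of CPM + 1 was passed by 8.67% of genes in JQ1-A against DMSO, and by AMOTL2 (2.21, 1.81 to 2.71) alone of the 10 genes. In JQ1+paclitaxel against paclitaxel, 16.1% of genes passed it, and CTGF (3.05, 2.81 to 3.31), CYR61 (2.78, 2.63 to 2.93) and AMOTL2 (2.89, 2.40 to 3.49) did so. In JQ1+palbociclib against palbociclib 4.88% passed, and none of the 10 genes did, with CTGF at 1.85 (1.75 to 1.95), AXL at 1.82 (1.71 to 1.93), TEAD1 at 1.76 (1.55 to 2.01) and AMOTL2 at 1.69 (1.51 to 1.90). For the pairs with equal exposure, 0.668% of genes passed between DMSO and pre-treatment and 0.258% between JQ1-B and JQ1-A, with none of the 10 genes in either. CTGF and CYR61 nevertheless differed between DMSO and pre-treatment, by 1.47 (1.35 to 1.61) and 1.57 (1.498 to 1.65).

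Libraries differed in the shares of cells in the phases of the cell cycle. With JQ1, 37.4% to 45.5% of cells were called G1. Without it the share was 17.1% in DMSO, 17.7% in pre-treatment, 1.37% in paclitaxel and 56.0% in palbociclib, a span that holds the JQ1 libraries. The fit was therefore repeated on cells of 1 phase. Among cells called G2/M, JQ1 exposure gave log2 fold changes of 1.21 for CTGF (adjusted p = 0.000572), 1.14 for AMOTL2 (0.00215), 0.75 for AXL (0.000859) and 0.84 for TEAD1 (0.00726) in edgeR's test. Among cells called S they were 1.17, 0.93, 0.68 and 0.57, and all 4 genes were called. WWTR1 was not called in either phase (0.29 and 0.23). Over all genes, 1818 were called among cells called G2/M and 1921 among cells called S. The 4 genes had already been called in the fit on all cells of the same libraries. No fit was made on cells called G1, of which paclitaxel had only 10.

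The second comparison asked about palbociclib, with 2 libraries against 6. In the same edgeR fit 26 genes were called, 0.28% of those tested, and 0 of the 9 genes. At an unadjusted p under 0.05 stood 2056 genes, 5 of them from the list, and DESeq2 called 515, 1 of them from the list. AMOTL2 came nearest at 0.89 ± 0.18 (adjusted p = 0.0739), and it was called by DESeq2 (0.89, adjusted p = 0.00553). Without palbociclib the fitted changes were 0.53 for AMOTL2 and 0.26 for LATS2, and without JQ1+palbociclib they were 1.23 and 1.19. TEAD1 was at 0.51 ± 0.12 (adjusted p = 0.0805), LATS2 at 0.73 ± 0.24 (0.138), YAP1 at 0.33 ± 0.11 (0.138), WWTR1 at 0.37 ± 0.13 (0.164) and CTGF at 0.41 ± 0.21 (0.287). AXL was at -0.032 ± 0.11 (0.889), and CYR61 and AJUBA also lay within 1 SE of 0. In YAP1 and LATS2 both exposed libraries lay above the other 6. Over all genes tested, 14.4% did not overlap in one direction or the other.

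Against DMSO, from another experiment, palbociclib had 2.02-fold the AMOTL2 level (1.65 to 2.48), where 3.23% of genes passed 2-fold on the CPM + 1 scale and AMOTL2 did not. Adding palbociclib to JQ1 (JQ1+palbociclib against JQ1-B) took 1.2% of genes past 2-fold and none of the 10. The ratios were 1.60 (1.44 to 1.79) for AMOTL2, 1.57 (1.40 to 1.76) for TEAD1, 1.26 for both CTGF (1.21 to 1.32) and WWTR1 (1.14 to 1.39), 1.25 (1.11 to 1.40) for YAP1 and 1.05 (1.003 to 1.102) for AXL, while AJUBA was lower, at 0.790 (0.692 to 0.901). JQ1+palbociclib was the highest library for WWTR1, TEAD1, CTGF, AXL and AMOTL2, and for YAP1 it did not differ from palbociclib beyond counting error.

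The third comparison was paclitaxel, also in 2 libraries against 6. No gene was called (0 genes, 0.0% of those tested, edgeR's quasi-likelihood test), and 395 genes, of which 1 was a member, had an unadjusted p under 0.05. DESeq2 called 9 genes and no member. CTGF was at -0.51 ± 0.22 and CYR61 at -0.53 ± 0.36 (adjusted p = 0.885 for both). In YAP1, at -0.21 ± 0.11, both exposed libraries were below the other 6, where 4.22% of all genes did not overlap.

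Behind the 2 values for the secreted targets stood libraries that differed. In paclitaxel against DMSO the ratio was 0.288 (0.272 to 0.304) for CYR61 and 0.443 (0.404 to 0.485) for CTGF, and these 2 were the genes of the list among the 2.96% of genes past 2-fold. In JQ1+paclitaxel against JQ1-A the ratio was 1.05 (1.002 to 1.09) for CYR61 and 0.853 (0.804 to 0.905) for CTGF, where 0.484% of genes passed and none of the 10 did. Without JQ1+paclitaxel the fitted change of CYR61 was -1.52 (adjusted p = 0.0783) and that of CTGF -0.95 (0.0960), and without paclitaxel they were 0.19 and -0.14 in edgeR's test. The JQ1 by paclitaxel interaction of CYR61 was 1.66 ± 0.31 (adjusted p = 0.0592), just outside the threshold, where 36 genes (0.388%) were called, and that of CTGF was 0.73 ± 0.28 (0.241). The JQ1 by palbociclib term called 1 gene (0.0108%), and none of the 9 tested was called in either. The sum of 11 genes induced soon after a stimulus or by cell dissociation was also low in paclitaxel, at 344 CPM against 685 to 1255 CPM in the other libraries. Not every gene of this list followed. JUN was lower in JQ1-B and JQ1+palbociclib than in paclitaxel. HSPA1A had 18.4 CPM in paclitaxel against 8.72 to 19.2 in the others, and HSPA1B 9.68 against 4.11 to 8.62. None of these 11 is a member, and their part in the CYR61 and CTGF values was not tested.

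The share of cells with at least 1 UMI was then compared after thinning every cell to 10000 UMIs, which kept 5487 cells. For CTGF it was 34.0% of 583 cells in pre-treatment, 47.9% of 445 in DMSO, 29.1% of 732 in paclitaxel and 52.3% of 662 in palbociclib. It was 61.4% of 650 cells in JQ1-A, 60.6% of 837 in JQ1-B, 58.1% of 606 in JQ1+paclitaxel and 69.9% of 972 in JQ1+palbociclib (95% exact binomial interval 66.9 to 72.7). Intervals of shares and levels cover counting error only. The groups did not overlap, and the 90th percentile of UMIs per thinned cell went from 2 to 3 without JQ1 to 4 to 5 with it.

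For CYR61 the share ran from 49.0% in paclitaxel (45.4 to 52.7) to 83.8% in palbociclib (80.8 to 86.6), with the JQ1 libraries between 75.7% and 80.1%. AXL ranged from 52.9% to 59.1% without JQ1 and from 66.8% to 74.6% with it. AMOTL2 ranged from 9.15% to 19.9% without JQ1 and from 21.9% to 31.9% with it. CTGF, AXL and AMOTL2 were the members with a share higher in every JQ1 library, where 4.29% of genes tested showed that order. With all UMIs of a cell, CTGF was found in 46.5% of cells in paclitaxel and 84.8% in JQ1+palbociclib. YAP1 was found in 18.0% to 28.3% of thinned cells, WWTR1 in 18.8% to 33.4%, TEAD1 in 12.6% to 30.6%, AJUBA in 14.2% to 20.6%, LATS2 in 3.43% to 7.41% and ANKRD1 in 0.462% to 2.02%. All cells were of 1 line, so no cell type that lacks these genes was at hand to measure free RNA in droplets. 

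**Figure D3:**
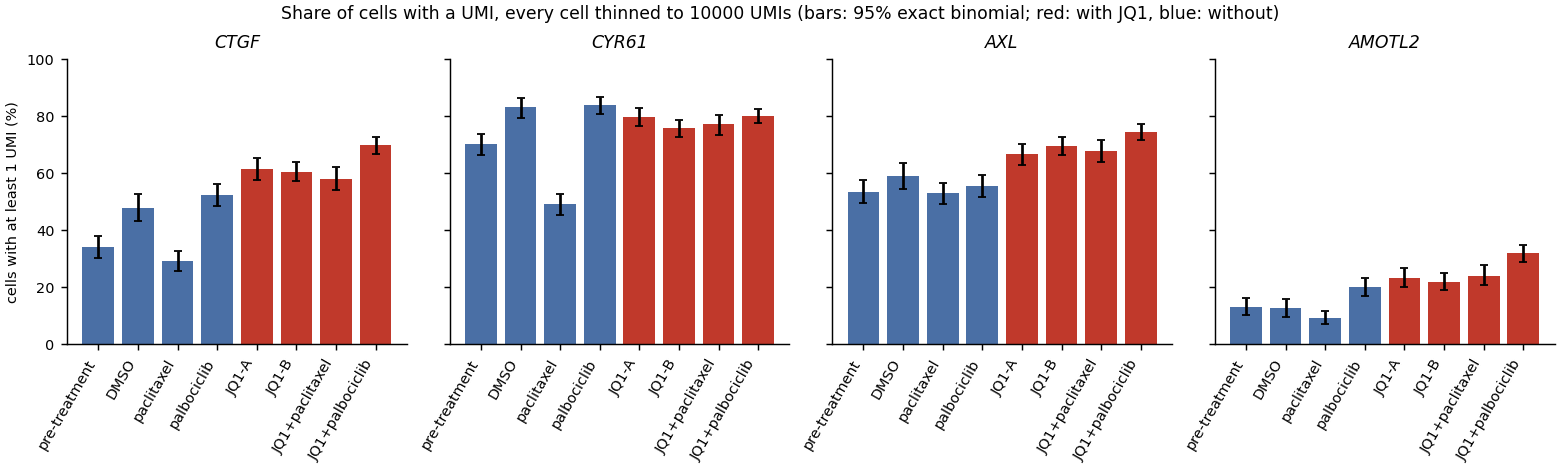
Share of cells with at least 1 UMI (y axis, percent, from 0) of CTGF, CYR61, AXL and AMOTL2 in each library (x axis), every cell thinned to 10000 UMIs, with 95% exact binomial intervals, red for libraries with JQ1 and blue for those without. The JQ1 libraries are highest for CTGF, AXL and AMOTL2, and paclitaxel is lowest for CYR61 at 49.0%.

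Since the drugs act on the cell cycle, the level of each gene was compared between cells called G2/M and cells called G1 within each library. CTGF was lower in G2/M in 8 of 8 libraries, by a mean log2 ratio of -0.84 ± 0.31 (SD, n = 8, exact two-sided sign-flip permutation test, p = 0.00781, the smallest it can give). In DMSO it had 143 CPM in G1 cells, 129 in S and 76.8 in G2/M, and in JQ1-B 203, 163 and 109.6 CPM. CYR61 was lower in G2/M in 8 of 8 libraries as well, by -0.68 ± 0.16, with 395, 439 and 285 CPM in the 3 phases of DMSO. AJUBA (-0.87 ± 0.39), ANKRD1 (-1.15 ± 0.71) and WWTR1 (-0.37 ± 0.16) were also lower in 8 of 8, although ANKRD1 rested on few UMIs. TEAD1 went the other way and was higher in G2/M in 8 of 8 libraries, by 0.46 ± 0.25. The same permutation p of 0.00781 holds for all 6 genes.

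Over all 9288 genes, 3.01% were lower in G2/M in 8 of 8 libraries and 18.1% were higher in 8 of 8, and the median mean log2 ratio was 0.20. Adjusted over all genes tested, the permutation p was 0.0371 for CTGF, CYR61, AJUBA, WWTR1 and TEAD1. AMOTL2 was at -0.68 ± 0.68 and lower in 7 of 8 libraries (permutation p = 0.0391, adjusted p = 0.105), while YAP1 (0.061 ± 0.43) and AXL (0.0078 ± 0.15) had no direction shared by the libraries. LATS2 was at 0.012 ± 0.97, a value set by paclitaxel, in which only 10 cells were called G1 and had 0 LATS2 UMIs. Paclitaxel was the 1 library in which LATS2 was higher in G2/M. Without it the mean was -0.32, but that the other 7 were all lower followed from the choice of library left out. No test is given for it. CTGF, CYR61, AJUBA, WWTR1 and TEAD1 kept their direction in 7 of 7 without paclitaxel. When phases were called within each library, TEAD1 was higher in G2/M in 6 of 8 libraries (0.49, permutation p = 0.0313, adjusted p = 0.0905).

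**Figure D4:**
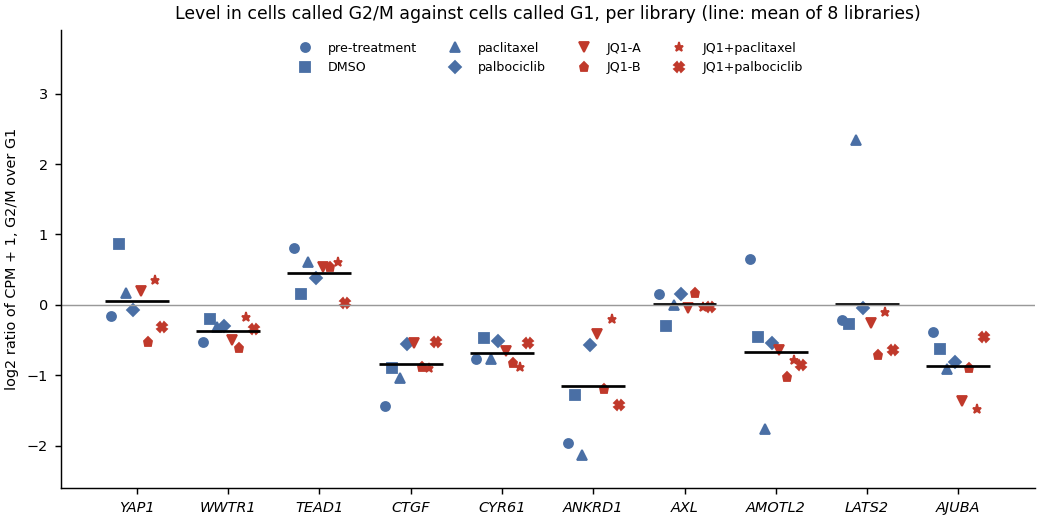
Log2 ratio of CPM + 1 in cells called G2/M over cells called G1 (y axis) for each of the 10 genes (x axis), 1 marker per library and a line at the mean of the 8 libraries, red for libraries with JQ1 and blue for those without. All 8 libraries are below 0 for CTGF, CYR61, WWTR1, ANKRD1 and AJUBA and above 0 for TEAD1, and the single high LATS2 marker is paclitaxel.

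Whether the targets were expressed by the same cells was described by the Pearson correlation of log(1 + UMI) across the thinned cells of a library. These cells share their library and their depth, so correlations are given with no test. CTGF and CYR61 had a correlation of 0.356 over 583 cells in pre-treatment, 0.383 over 445 in DMSO, 0.266 over 732 in paclitaxel, 0.340 over 662 in palbociclib, 0.403 over 650 in JQ1-A, 0.4199 over 837 in JQ1-B, 0.4215 over 606 in JQ1+paclitaxel and 0.394 over 972 in JQ1+palbociclib. Their mean was 0.373. CYR61 was the gene most alike to CTGF in every library, and CTGF the one most alike to CYR61 by the mean over libraries, among 3392 genes that averaged 0.2 UMI or more per cell in all libraries. The median correlation of those genes with CTGF was -0.0051. In JQ1+palbociclib, 61.1% of cells had a UMI of both, CYR61 being found in 87.5% of cells with CTGF and 63.1% of cells without it. In paclitaxel it was found in 61.0% and 44.1%.

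The remaining pairs had lower mean correlations. AMOTL2 had a mean correlation of 0.12 with CTGF (0.016 to 0.19 over the libraries) and 0.11 with CYR61 (0.031 to 0.15), positive in all 8 libraries for both. On average this was above 92.2% of the 3392 genes for CTGF and 94.7% for CYR61. AMOTL2 averaged under 0.2 UMI per cell in some libraries, so it could not enter the lists of most alike genes below. ANKRD1 and AJUBA lay at 0.063 to 0.070 with either. AXL, which rose with CTGF under JQ1, had a mean of 0.035 with CTGF and ranked 225 of the 3392 genes, and 0.026 with CYR61, at rank 454. YAP1 and WWTR1 had a mean of -0.010 with each other, and the means of YAP1, WWTR1 and TEAD1 with CTGF or CYR61 ran from 0.0041 (TEAD1 with CYR61) to 0.033 (WWTR1 with CTGF). In counts this sparse, such values are no finding in either direction.

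By the rule of highest mean correlation, the genes most alike to CTGF after CYR61 were IER3 (0.163), DKK1 (0.161), PLK2 (0.149), THBS1 (0.148), F3 (0.146), NEAT1 (0.132), GADD45B (0.126), RHOB (0.118) and EGR1 (0.117). Those most alike to CYR61 after CTGF were F3 (0.2199), IER3 (0.208), DKK1 (0.188), PLK2 (0.163), IL8 (0.1499), GADD45A (0.146), CITED2 (0.143), THBS1 (0.136) and EGR1 (0.134). IER3, DKK1, PLK2, THBS1, F3 and EGR1 were on both lists. THBS1 encodes thrombospondin 1, F3 tissue factor and DKK1 a secreted Wnt inhibitor, while IER3 and EGR1 are immediate early genes.

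**Figure D5:**
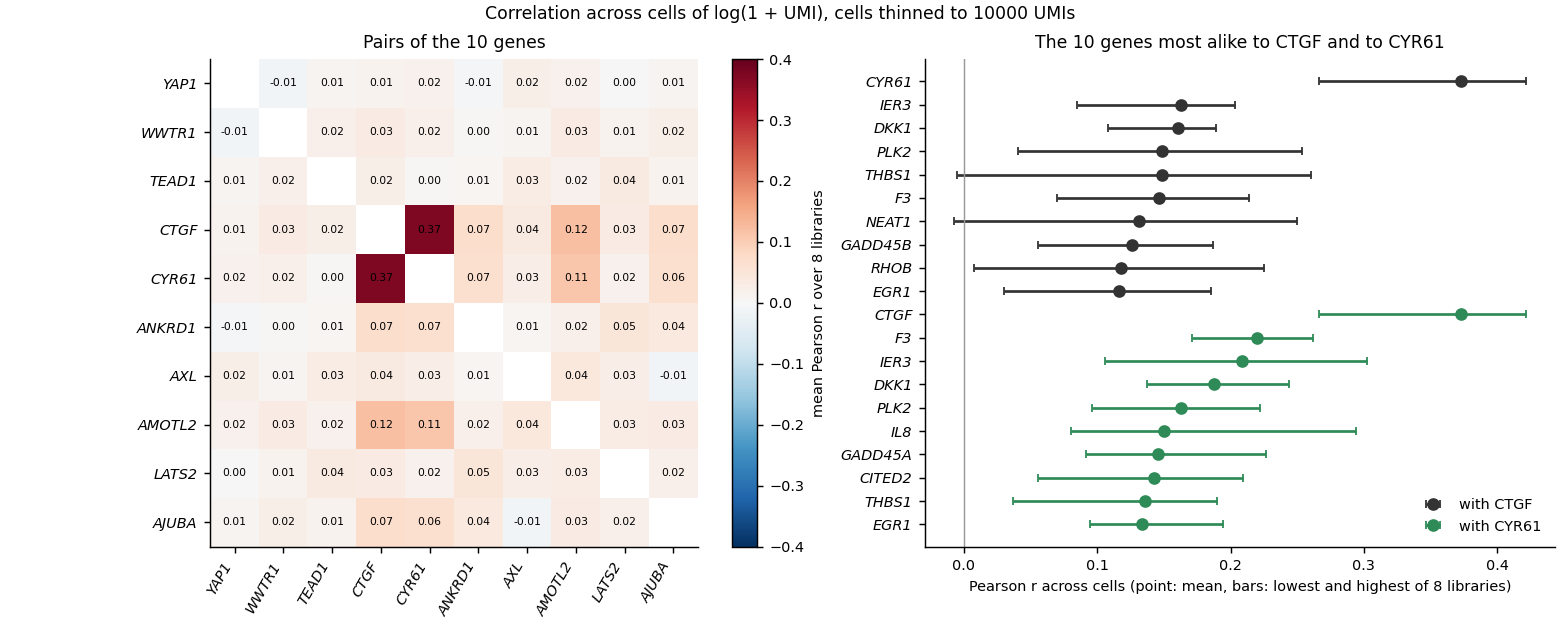
Left, mean over the 8 libraries of the Pearson correlation across cells for every pair of the 10 genes (both axes, colour scale from -0.4 to 0.4). Right, the 10 genes most alike to CTGF (black) and to CYR61 (green), with the mean correlation as a point and the lowest and highest library as bars. CTGF with CYR61, at 0.37, stands apart from all other pairs, of which the next is 0.12.

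The levels of CTGF and CYR61 were also uneven from cell to cell. One cell of JQ1-B, with 32364 UMIs in all, held 559 UMIs of CYR61 and 253 of CTGF but only 1 of AMOTL2 and 1 of AXL. Without it JQ1-B was at 148 CPM for CTGF in place of 160.5, and at 229.9 for CYR61 in place of 257, and the correlation of the pair in that library was 0.397 in place of 0.4199. Variation of CTGF among cells, as variance over squared mean after subtracting the Poisson part, was 4.39 in pre-treatment, 2.08 in DMSO and 2.18 in paclitaxel. It was between 0.762 and 1.47 in palbociclib and in the JQ1 libraries other than JQ1-B, whose value of 3.50 includes the cell above. Over 3393 genes the median of this measure was 0.101 to 0.169.

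Within JQ1+palbociclib, the 10% of cells highest in summed COL1A1, HTRA3 and TIMP3 (98 cells, against 874) had 134 CPM of CTGF against 209 in the rest, and 1 UMI of LATS2, where the rest had 8.35 CPM. AXL had 171 and 169 CPM there, and AMOTL2 had 41.8 and 42.3. The 10% highest in summed PKIB and MMP1 had 260.2 CPM of CTGF against 195 and 28.6 of AJUBA against 17.0. WWTR1 was also higher there, at 64.3 against 41.9, as were YAP1 (48.0 against 31.9) and LATS2 (10.2 against 7.32). Lower were AMOTL2 (29.6 against 43.7), CYR61 (238 against 276), AXL (149 against 171), TEAD1 (34.7 against 36.5) and the sparse ANKRD1. In both groups the lowest of the chosen cells held 3 summed UMIs. These are cells of 1 library, so the values have no test.

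The wider pathway was read from lists of other genes in the same fit. Of 28 Hippo regulators 24 were tested, and under JQ1 8 rose, 1 fell and 15 did not pass, with a median log2 fold change of 0.22 (all genes, -0.0032). The 9 called of 24 were close to the 37.6% called among all genes tested. By direction, 8 of the 24 were called higher, as were 17.8% of all genes, and 1 was called lower, as were 1833 of 9288 genes. AMOTL1, another angiomotin, rose by 0.84 ± 0.12 (adjusted p = 0.00223), from 5.74 to 7.61 CPM without JQ1 to 9.27 to 12.5 with it. FAT1, an atypical cadherin, rose by 0.83 ± 0.10 (0.00138), the polarity protein SCRIB by 0.68 ± 0.14 (0.00924) and STK4, the kinase MST1, by 0.65 ± 0.11 (0.00374) in edgeR's test. WWC1, which encodes KIBRA, an activator of LATS, fell by 1.85 ± 0.26 (0.00224), from 3.48 to 5.53 CPM to 0.680 to 1.44 CPM.

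Of 6 TEAD factors and cofactors, 5 were tested, with 1 rise and 2 falls (median 0.091), and 2 were not called. Among all genes tested 37.6% were called. TEAD2 fell by 0.46 ± 0.14 (adjusted p = 0.0319), from 11.2 to 18.3 CPM to 8.30 to 10.5 CPM, opposite in direction to TEAD1. TEAD4 had 14.2 to 37.9 CPM without JQ1 and 10.1 to 16.5 with it, so its libraries overlapped. In unscaled CPM the sum of the 5 was 67.3 to 74.1 without JQ1 and 53.9 to 58.3 with it. Of 16 other YAP and TAZ targets, 12 were tested, 3 rose, 1 fell and 8 did not pass (median 0.36), so that the 4 called of 12 were a smaller share than the 37.6% among all genes. PTPN14, a phosphatase that restrains YAP, rose by 0.85 ± 0.15 (adjusted p = 0.0049), with palbociclib at 60.7 CPM just below the JQ1 libraries (61.6 to 71.4). FOXF2, a forkhead factor, fell by 0.78 ± 0.15 (0.00655).

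Of 18 targets of SRF and its cofactor MRTF, which respond to actin, 14 were tested, 3 rose and 1 fell (median -0.032), again a smaller share than 37.6%. MYH9, the non-muscle myosin heavy chain, rose by 0.60 ± 0.10 (adjusted p = 0.00367), and MYL9, a myosin light chain, fell by 1.13 ± 0.26 (0.0127). None of 11 immediate early and dissociation genes was called (median 0.30). For palbociclib and for paclitaxel, 0 genes of any of these 5 lists were called by edgeR.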

How the data were processed

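Per the labels and the study's methods, libraries used the 10x Genomics 3′ v2 kit, and Cell Ranger aligned reads to hg19. The authors deposited UMI counts per gene and cell, with the library of each cell, for genes found in at least 3 cells. UMIs of the deposited cells were added up by library, since cells are no replicates. Genes reaching 5 CPM in at least 2 libraries were tested with edgeR 4.0.16 (R 4.3.3, TMM scaling, quasi-likelihood F test) for JQ1, palbociclib and paclitaxel exposure, with 4 residual degrees of freedom (2 in the interaction model). Standard errors are approximate, derived from each estimate and its F. P-values measure the spread between these libraries of mixed cultures, which may be technical. The fit was tested on simulated data.

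Shares, phases and correlations used the study's filter (1 to 15% mitochondrial UMIs, 2000 or more genes) and cells thinned to 10000 UMIs, and 88 cells were too shallow. Phases came from the lists in Seurat 5.3.0, scored with scanpy 1.11.5 over all libraries. Phase p-values were adjusted over all genes tested, in place of the planned adjustment over the 10 genes. Doublets were not called, as the cells are of a single line. Positions are from GENCODE in GRCh37. From each list, genes called under JQ1 with no overlap were named, at most 4 rises and 4 falls. The genes and lists were chosen with earlier results of these data known. Alternatives were DESeq2 1.42.0, upper-quartile factors, no filter, filtered cells, thinned libraries, an experiment term, 3 matched pairs and each library left out. Fits on cells called G2/M or S, and without the cell highest in CYR61, were added after the data were seen.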

Additional observations from a re-analysis of the deposited data

Results flagged for a closer look

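In groups of 4 libraries, each gene's highest and lowest library was set against Dixon's 95% critical value of 0.829 for the gap to the next library divided by the range. Of 20 groups tested, 3 held a library that stood apart. The nominal rate of about 1 in 20 would hold only for 4 libraries of the same kind, and these groups mix treatments. The rule was not run over all genes, so 3 of 20 cannot be read as an excess in these genes. AMOTL2 in JQ1+palbociclib, at 41.1 CPM, stood apart from the other JQ1 libraries (gap 0.934 of the range). TEAD1 in JQ1+palbociclib, at 34.2 CPM, did so as well (0.857). LATS2 in palbociclib, at 7.73 CPM, stood apart from the other libraries without JQ1 (0.898). Without JQ1+palbociclib the JQ1 fold change was 1.501 for AMOTL2 and 0.78 for TEAD1, both called by edgeR.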

How the results depend on the processing

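Under JQ1 the calls of AMOTL2, CTGF, AXL and TEAD1 held in all 18 alternatives, and 4 to 7 of the 9 genes were called. WWTR1 was called in 10 of them, LATS2 in 5 and AJUBA in 4. The labels give the groups no shared replicate numbers, so libraries could be matched only by experiment and partner drug, in 3 pairs.

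Genes called for JQ1 numbered 363 with experiment as a term, 361 in 3 matched pairs, 1818 in G2/M cells, 1921 in S cells, and 1760 (without JQ1-A) to 4190 (without palbociclib) with a library left out, with 1970 without pre-treatment, 2269 without DMSO and 2032 without JQ1-B. For palbociclib they numbered 205 with no filter, 515 by DESeq2, 127 in S cells, 0 with experiment as a term, and 0 (without pre-treatment, DMSO or JQ1-B) to 938 (without JQ1+palbociclib) with a library left out, with 482 without paclitaxel, 497 without JQ1+paclitaxel, 2 without JQ1-A and 10 without palbociclib. Genes of the list called for palbociclib were 1 with no filter and 1 by DESeq2 (AMOTL2), and 0 to 2 with a library left out: AMOTL2 and TEAD1 without paclitaxel or JQ1+paclitaxel, AMOTL2 and LATS2 without JQ1+palbociclib. For paclitaxel 2 genes were called with no filter, 9 by DESeq2, 3 in S cells and 0 to 4 with a library left out (1 without paclitaxel, 4 without JQ1+paclitaxel). The causes were not tested.

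Directions reversed in values not called in the report. Under JQ1, AJUBA was at -0.048 in G2/M cells. Under palbociclib, AXL was at 0.019 with upper-quartile factors and 0.082 in S cells, AJUBA at 0.012 with upper-quartile factors, 0.028 in thinned libraries and 0.10 in S cells, and CYR61 at -0.0013 in S cells. With a library left out, AXL ran from -0.11 to 0.038, AJUBA from -0.28 to 0.18 and CYR61 from -0.27 to 0.41. Under paclitaxel, TEAD1 was at 0.0066 with no filter and 0.028 in thinned libraries, and in S cells YAP1 was at 0.0020, WWTR1 at 0.086 and AJUBA at 0.12. With a library left out, WWTR1 ran from -0.34 to 0.049, TEAD1 from -0.071 to 0.0032, CYR61 from -1.52 to 0.19, AMOTL2 from -0.52 to 0.14, LATS2 from -0.27 to 0.36 and AJUBA from -0.32 to 0.023. For G2/M against G1 with phases called within libraries, AXL was at -0.025 and LATS2 at -0.11, and with a library left out YAP1 ran from -0.053 to 0.15, AXL from -0.014 to 0.053 and LATS2 from -0.32 to 0.11.

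The mean correlation of CTGF with CYR61 was 0.476 without thinning and 0.317 in G1 cells. The G1 mean includes paclitaxel at 0.045, from only 10 G1 cells, while the other libraries ran from 0.28 in palbociclib to 0.44 in pre-treatment. CTGF and AXL kept a share of cells above all libraries without JQ1 with and without thinning, and AMOTL2 did so only after thinning. Depth limits ANKRD1 and LATS2, with at most 39 and 171 UMIs in a library.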
